A study of Mus musculus with 16 samples.

Results

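RNA from the dentate gyrus (DG) was compared between mice trained in active place avoidance and untrained mice, gene by gene, in the libraries whose labels name this subregion. These are 5 of the 16 bulk RNA-seq libraries, namely trained replicates 1, 2 and 3 and untrained replicates 1 and 3. The other libraries are labelled CA1 (6) or CA3 (5). All mice, trained and untrained, carried the ArcCreERT2::eYFPflx alleles, a tamoxifen-dependent Cre expressed under Arc with a floxed eYFP reporter, on a C57BL/6 background, and were 3 to 4 months old. Trained mice learned over 2 days and 4 trials to leave a shock zone on a rotating arena, whereas the shock was never switched on for untrained mice. Retention was tested 24 h after the last session, and 60 min later the dorsal subregions were cut from 400 μm slices and the pieces of each animal were pooled by subregion. By the study's methods the trained group held 2 females and 1 male and the untrained group 1 female and 2 males. One further untrained DG library failed the study's quality control and was not analysed here, so every statement about untrained DG rests on 2 animals.

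The dentate gyrus is the entry station of the hippocampal circuit. Its principal neurons, the granule cells, fire sparsely and send mossy fibres to CA3 pyramidal cells, and it is one of the few places in the adult brain where new neurons are made. Recall of a place memory is known to induce immediate early genes such as Arc, Fos and Egr1 in a small share of granule cells, and later waves of transcription include synaptic, metabolic and chromatin genes.

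The values are estimated counts per gene that had been normalized between libraries, and they summed to between 7643225 and 7880700 in the DG libraries. The spacing of the lowest values gives about 2.83 M reads for untrained replicate 1, 4.73 M for trained replicate 2 and 8.59 to 12.77 M for the others. The 3 trained libraries listed 3479, 5944 and 3944 genes at 0 and the untrained libraries 8636 and 7567, so this measure separated the groups completely. Sex-linked transcripts separated them as well. Xist, the RNA that coats the inactive X chromosome, was at 15810, 15522 and 7601 in trained replicates 1 to 3 and at 25.5 and 52.2 in untrained replicates 1 and 3. The Y-linked helicase gene Ddx3y was at 1.83, 1.66 and 255 in the trained and at 448 and 500 in the untrained libraries, which leaves trained replicate 3 with both transcripts at high levels. In CA3 of the animal labelled untrained replicate 1, Xist was at 10587, although it was at 25.5 in the DG library of the same number. It lay between 7601 and 19592 in all trained libraries of the series and between 25.5 and 52.4 in the other untrained ones. These levels go against the stated sexes, by which each group held animals of both, and whether animals or libraries were exchanged was not tested. Training therefore cannot be told apart, in these 5 libraries, from whatever goes with the sex-linked transcripts or with the number of genes at 0.

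The subregion label was checked against marker genes. Granule cell transcripts were abundant in the DG libraries, yet no more so than in the libraries labelled CA1 and CA3. Prox1, the transcription factor that maintains granule cell identity, lay between 3292 and 4183 in the 5 DG libraries, between 3052 and 3861 in CA1 and between 2690 and 4786 in CA3. The granule cell gene C1ql2, which encodes a secreted C1q-like protein of mossy fibre synapses, lay between 651 and 747 in DG, which is inside its range over the other 11 libraries. Of 22 granule cell markers, 0 were higher in every DG library than in every CA1 and CA3 library, and the DG mean was above the CA1 mean for 11 and above the CA3 mean for 10. The summed level of the 22 genes was 29301 to 36099 in DG, 28058 to 33965 in CA1 and 25261 to 40093 in CA3. Among 12 CA1 pyramidal markers the sum was 3426 to 4415 in DG and 5940 to 8941 in untrained CA1, but 3855 to 4377 in trained CA1, which is within the DG range. The 12 CA3 pyramidal markers summed to 12765 to 14873 in DG and 12215 to 15131 in CA3. The markers thus do not show that the libraries labelled DG come from the dentate gyrus, and whether tissue was mixed or labels are wrong was not tested. In what follows, DG, CA1 and CA3 mean the libraries so labelled, and each value and each comparison between subregions holds only under those labels.

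**Figure D1:**
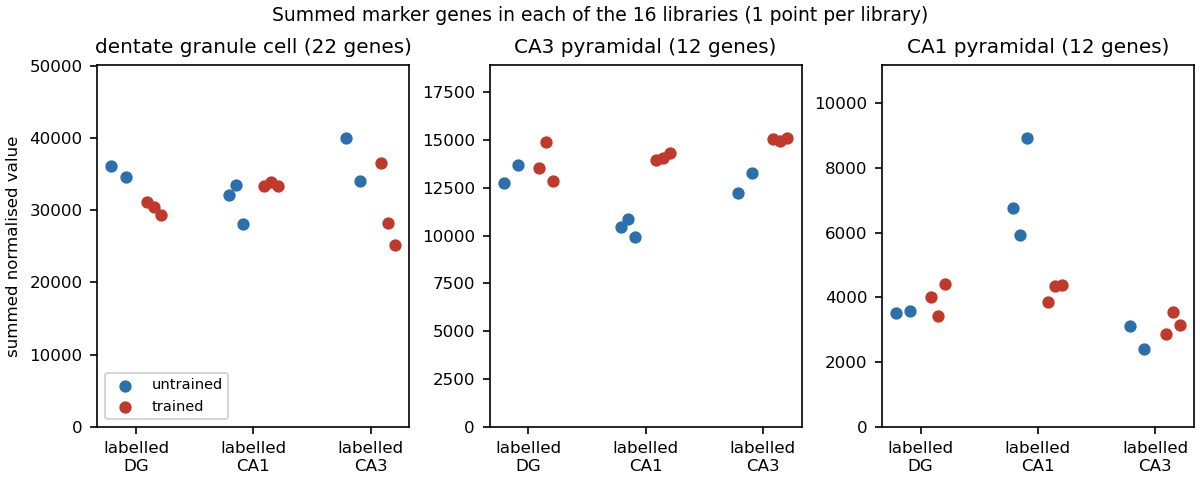
Summed normalised values of marker genes for dentate granule cells, CA3 pyramidal cells and CA1 pyramidal cells, with 1 point per library, the labelled subregion on the x axis and blue for untrained and red for trained mice. The granule cell sum of the DG libraries (29301 to 36099) lies within the range of the CA3 libraries (25261 to 40093), and in DG the 3 trained libraries lie below the 2 untrained ones.

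Training was accompanied by many small differences in DG. Of 13935 genes tested with limma, 473 (3.39%) had an adjusted p-value under 0.05 and are called here. Among these, 242 (1.74% of the genes tested) were higher and 231 (1.66%) were lower in trained mice. The median absolute log2 fold change was 0.61 among the genes called higher and 0.36 among those called lower, against 0.16 over all genes tested, and 389 of the 473 differed by less than 2-fold. Their median level was 256 (higher) and 1085 (lower), against 180 over all genes tested. The shares called over all genes thus include many genes of lower level. On chromosome X 21 of 509 genes tested (4.13%) were called, against 3.39% of all genes. The groups did not overlap in any of the 473, nor did they in 35.6% of all genes tested (17.5% with trained higher, 18.2% with trained lower), and 19.5% had an unadjusted p under 0.05. Trained replicate 3, the library with both Xist and Ddx3y, was placed on the distance from the untrained mean to the mean of trained replicates 1 and 2. Only genes whose 2 means lay further apart than a set distance were used, 5859 of those tested. Over these, trained replicate 3 lay at a median of 79.9% (quartiles 41.5% and 115.3%) of that distance. Over the called genes the median was 102.2%. Both values are fixed in part by the choice of genes. The number of calls was 92, 28 and 101 without trained replicates 1, 2 and 3. Leaving out an untrained library leaves 1 untrained animal, so such fits hold no spread among untrained mice. The numbers of genes they call are not given, although the 20 alternatives counted below include them. When a trend of fold change on GC content and transcript length was removed, 185 genes were called higher and 409 lower, so the near-even split between directions depends on that choice. A rescaling to the upper quartile, which shifts the median of all genes by 0.40, gave 5979 higher and 15 lower. That quartile was taken over values above 0, and the number of genes at 0 differed between the groups. With the sex-linked score or the number of genes at 0 as a covariate in all 16 libraries, 56 and 33 genes were called.

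**Figure D2:**
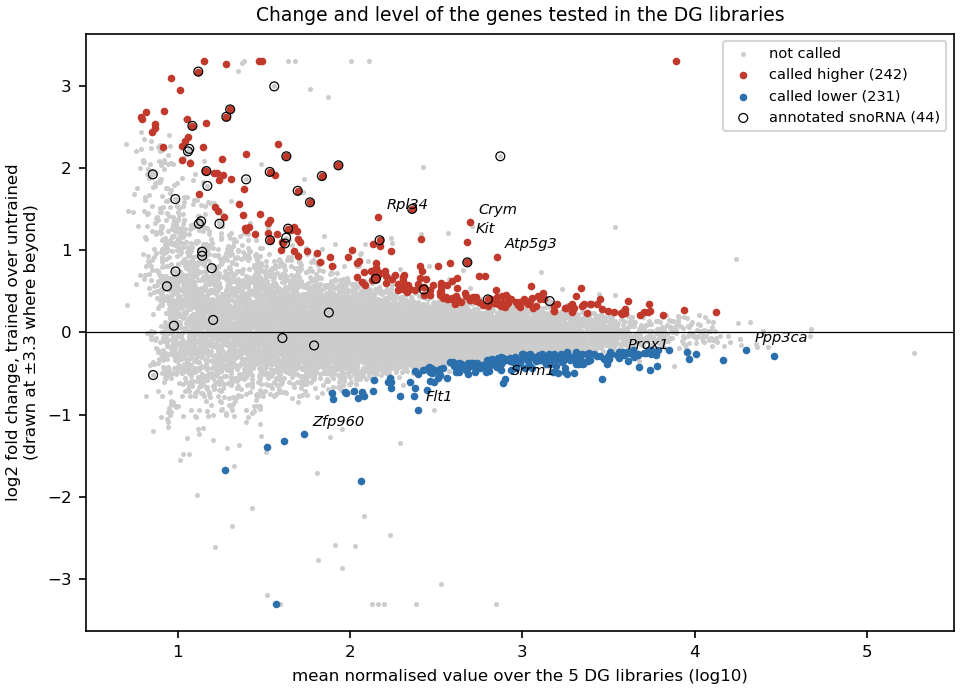
Each point is 1 of the 13935 genes tested, with its mean normalised value over the 5 DG libraries (log10) on the x axis and its log2 fold change of trained over untrained on the y axis, drawn at 3.3 or -3.3 where beyond. The 242 genes called higher (red) reach larger changes than the 231 called lower (blue), and circles mark the 44 annotated small nucleolar RNAs.

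Crym had the smallest p-value among the genes that were higher. It encodes mu-crystallin, an NADPH-dependent protein that binds thyroid hormone in the cytosol. Its value was 628, 702 and 638 in the 3 trained libraries and 306 and 217 in the untrained ones. All trained libraries were thus at least 2-fold above the higher untrained one, with a log2 fold change of 1.34 and a standard error of 0.126 (limma adjusted p = 0.000207). Crym lies on the minus strand at chr7:120186380-120202111 of GRCm38. The call held in 17 of 20 alternative analyses, and it was lost with either covariate and with the spread estimated from all 16 libraries. Of the other 14 measured genes of the thyroid hormone list, 0 were called, and the list's median was -0.12. Kit, the receptor tyrosine kinase for stem cell factor, which in the hippocampus is carried by interneurons, was at 559, 718 and 545 in trained and at 340 and 232 in untrained DG (log2 fold change 1.10, standard error 0.175, limma adjusted p = 0.0173), and the call was lost in 4 of the 20 alternatives, among them leaving out trained replicate 2. It lies on the plus strand at chr5:75574916-75656722. The 16 interneuron markers, Kit among them, summed to 7321 to 7544 in trained and 6881 to 7094 in untrained libraries. Kit was the only one of them called, and its own difference is part of that between the sums. Of the 16, 9 had a positive and 7 a negative fold change (median 0.03).

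**Figure D3:**
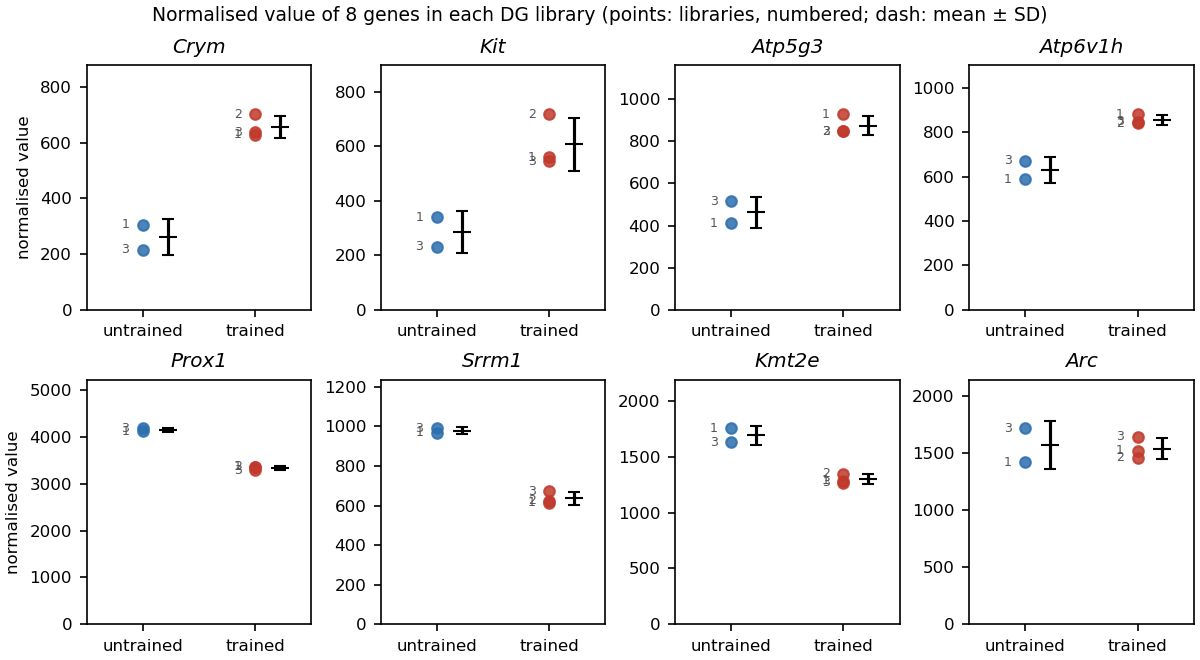
Normalised values of 8 genes in the DG libraries, with 1 point per library marked by its replicate number, untrained in blue and trained in red, and the mean ± SD as a dash with bars. Crym, Kit, Atp5g3 and Atp6v1h were higher and Prox1, Srrm1 and Kmt2e lower in all 3 trained libraries, while for Arc the groups overlap.

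Other genes with the smallest p-values among those higher were spread over several functions. Atp5g3, which encodes the membrane ring subunit c of ATP synthase, was at 928, 847 and 847 in trained and 412 and 515 in untrained mice (log2 fold change 0.92, standard error 0.0973). Atp5e, the epsilon subunit of the same enzyme, was at 377, 390 and 409 against 222 and 222 (0.81, standard error 0.104). Both ATP synthase genes were called in all 20 alternative analyses. Dynll2, a light chain shared by dynein and myosin V motors, was at 2474 to 2594 in trained and 1660 and 1796 in untrained libraries, a log2 fold change of 0.54. Cacna1i, the T-type calcium channel Cav3.3, was at 649 to 789 against 410 and 474 (0.69). The same direction was seen for Rabac1, a prenylated Rab acceptor of the Golgi (0.84), Pebp1, an inhibitor of Raf kinase (0.44), Ephb6, an Eph receptor without kinase activity (0.66), and the adrenergic receptor gene Adra1d (0.62), all of them called. Their limma adjusted p-values lay between 0.000207 and 0.00543.

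Among the largest increases were genes of low abundance. Nr2f2, an orphan nuclear receptor found in interneurons of caudal origin, was at 117, 162 and 111 in trained and 63.4 and 62.9 in untrained DG (log2 fold change 1.0). Megf11, a cell surface protein with epidermal growth factor repeats, was at 60.2 to 69.9 against 28 and 31.3 (1.10). Fbll1, a paralogue of fibrillarin, was at 163 to 182 against 58.4 and 110.4 (1.07), and Pycrl, an enzyme of proline synthesis, at 65.5 to 80.1 against 33.2 and 36.1 (0.99). H2afz, the gene of the histone variant H2A.Z, was at 724, 608 and 660 in trained and 360 and 466 in untrained libraries (0.69, standard error 0.112, limma adjusted p = 0.00634). Reads of H2afz can be shared with processed copies elsewhere in the genome, which leaves its value uncertain. The other 10 histone variant genes tested gave no call.

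The genes with the smallest p-values among those lower were led by Fam163b and Wipf3. Fam163b, a membrane protein gene of unsettled function, was at 2504, 2414 and 2361 in trained and 3742 and 3466 in untrained mice (log2 fold change -0.57, standard error 0.0625, limma adjusted p = 0.000228). Wipf3, which encodes a partner of the actin regulator WASP, was at 4718 to 4931 against 6559 and 6674 (-0.46). Flt1, the VEGF receptor 1 of blood vessels, was at 192, 176 and 172 against 390 and 306 (-0.94). Igfbp5, a secreted binding protein of insulin-like growth factors, differed by -0.50, the nuclear envelope protein gene Syne1 by -0.34, the secreted olfactomedin gene Olfm1 by -0.32 and the RNA-binding protein gene Ybx1 by -0.57, each of them called. Among called genes of mean value at least 50, the largest decreases beside Flt1 were in Zfp960, a zinc finger gene (-1.24), Pla2g4e, a phospholipase A2 (-0.81), Tshz2, a zinc finger homeobox gene (-0.80), Strip2 (-0.78), Cyp26b1, which degrades retinoic acid (-0.77), Cd3eap, a subunit of RNA polymerase I (-0.77) and Dync2li1, a light intermediate chain of the ciliary dynein (-0.74). With the number of genes at 0 as covariate the sign of Tshz2 turned to 0.31, and with the sex-linked score that of Strip2 turned to 0.71.

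Genes of the respiratory chain were higher more often than lower. Of 85 measured subunits of complexes I to IV and of ATP synthase, 8 (9.41%) were called higher and 0 lower, against 1.74% and 1.66% of all genes, and 67 had a positive fold change. The medians were 0.24 over 38 complex I genes, 0.19 over 30 genes of complexes II to IV and 0.08 over 17 ATP synthase genes, beside 0.00 over all genes tested. Those called in complex I were Ndufc1 (182 to 211 in trained and 117 and 119 in untrained libraries), Ndufc2 (364 to 395 against 237 and 299) and Ndufv1 (791 to 893 against 638 and 680), with log2 fold changes of 0.69, 0.52 and 0.36. Cyc1, the cytochrome c1 of complex III, differed by 0.43 and Cox5a of cytochrome oxidase by 0.41. Atp5a1, the alpha subunit, was called at 0.21, far below Atp5g3 and Atp5e. Without trained replicate 1, 2 or 3 the calls in complexes I to IV numbered 0 and those in ATP synthase 2. Without untrained replicate 1 the medians of complex I and of complexes II to IV were 0.08 and 0.09. They were 0.26 and 0.18 without untrained replicate 3.

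The vacuolar ATPase, the proton pump that acidifies lysosomes and loads synaptic vesicles, gave the largest share of higher calls of these lists. Of 18 measured subunits, 5 (27.8%) were called higher and 0 lower, against 1.74% and 1.66% of all genes, and the median was 0.18. Atp6v1h was at 881, 839 and 846 in trained and 589 and 672 in untrained libraries (log2 fold change 0.44), and Atp6v1g1 (0.42), Atp6ap2 (0.38), Atp6v1a (0.26) and Atp6v1b2 (0.22) were called too. All but 1 of these genes belong to the cytosolic V1 part of the pump. Atp6ap2, an accessory protein, lies on chromosome X. The proteasome list gave 3 calls of 36 (8.33%), all higher, for Psmd6 (0.49), Psmb4 (0.43) and Psmd14 (0.37). In glycolysis, with 2 of 20 genes (10%) called higher and 1 (5%) lower, Pgk1 (0.35, also on chromosome X) and Eno1 (0.25) were higher, and Slc16a7, which encodes a lactate and pyruvate transporter that this list includes, was lower (-0.32). When trained replicate 1, 2 or 3 was left out, 0 genes of the vacuolar ATPase, proteasome and glycolysis lists were called in each case.

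Ribosomal protein genes moved in both directions. Of 82 cytosolic genes tested, 6 (7.32%) were called higher and 4 (4.88%) lower, against 1.74% and 1.66% of all genes, with a median of 0.09. Rpl34 was at 168, 220 and 190 in trained and 95.6 and 53.5 in untrained DG (log2 fold change 1.40), and Rpl22l1, a paralogue of Rpl22, at 286 to 318 against 171 and 180 (0.80). Rps16 (0.42), Rps21 (0.45), Rps14 (0.35) and Rps3 (0.26) were higher as well. Rpl21 was at 1154 to 1438 against 1690 and 1938 (-0.48), and Rpl19 (-0.39), Rps24 (-0.37) and Rpl7a (-0.34) were also lower. Ribosomal protein genes have many processed copies, so how reads were divided among them can affect each value, and after removal of the trend on GC content and length 3 were called higher and 10 lower. Without trained replicate 2 only 1 of the list was called. Among 65 translation factors, Eif4h (0.32) was higher and Eif4g3 (-0.36), Eif3a (-0.36) and Eif5b (-0.34) were lower.

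Among genes that modify or remodel chromatin, the calls were all lower. Of 150 measured genes in 3 lists, 24 (16%) were called lower and 0 higher, against 1.66% and 1.74% of all genes, and 124 had a negative fold change. The lists gave 7 calls of 52 histone methyltransferases and demethylases (median -0.10), 9 of 46 genes of histone acetylation and bromodomain proteins (median -0.16) and 8 of 52 remodelers (median -0.20). Kmt2e, a SET and PHD domain protein that binds methylated histone H3, was at 1286, 1350 and 1268 in trained and 1754 and 1631 in untrained mice (log2 fold change -0.38, standard error 0.0695, limma adjusted p = 0.0101). Other methylation genes called were Dot1l (-0.37), the H3K79 methyltransferase, Kmt2a (-0.32), Jmjd1c (-0.31), Kdm2a (-0.28), Ash1l (-0.27) and Nsd1 (-0.24).

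The acetylation list was led by Ncoa6, a coactivator of nuclear receptors, at 1029, 1003 and 973 in trained and 1323 and 1391 in untrained libraries (log2 fold change -0.44). Of the acetyltransferases, Kat6b (-0.34), Kat6a (-0.31) and Crebbp (-0.27) were called, of the bromodomain readers Brd7 (-0.45), Bptf (-0.33) and Brd2 (-0.28), and Sirt2, a deacetylase abundant in oligodendrocytes, by -0.41. Among the remodelers, Arid5b was at 240 to 267 against 374 and 408 (-0.61) and Arid4a at 503 to 549 against 735 and 741 (-0.48). Chd7 (-0.39), Smarcd1 (-0.39), Chd9 (-0.29), the chromosome X gene Atrx (-0.29), Chd6 (-0.27) and Smarcc2 (-0.27) were called as well. All of these changes were below 2-fold. Leaving out trained replicate 1, 2 or 3 left 2, 0 and 5 of the genes called lower, with medians of the 3 lists between -0.10 and -0.23. Without untrained replicate 1 or 3 these medians lay between -0.11 and -0.21. After upper-quartile rescaling 39 of the 150 were called higher and 0 lower. The 3 medians were then 0.30, 0.25 and 0.20, beside a median of 0.40 over all genes, which this rescaling shifts alike. With the sex-linked score as covariate 0 were called higher and 6 lower, and with the number of genes at 0, 1 and 1.

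Of 128 splicing factor genes tested, 11 (8.59%) were called lower and 4 (3.12%) higher, against 1.66% and 1.74% of all genes. Srrm1, a coactivator of splicing with many serine and arginine repeats, was at 614, 624 and 673 in trained and 967 and 990 in untrained DG (log2 fold change -0.62, standard error 0.0799, limma adjusted p = 0.000672). Snrnp70, the U1 snRNP 70 kDa protein, was at 1462 to 1580 against 2010 and 2248 (-0.48). Clk2, a kinase of splicing factors, had the largest change of the list among its called genes (-0.71), and Prpf38b (-0.48), Srrm2 (-0.41), Rbm26 (-0.40), Rbm25 (-0.37), Luc7l3 (-0.32), Luc7l2 (-0.30), Rbm5 (-0.30) and U2surp (-0.28) were lower too. Those higher were Snrpd2 (0.55), a core Sm protein, Srsf9 (0.54), Hnrnpa1 (0.48) and Hnrnpa0 (0.37). Pnisr, which is outside the list and encodes a further serine and arginine rich protein, was lower at -0.50. Without trained replicate 1, 2 or 3, 2, 1 and 2 genes of the list were called lower and 0 higher.

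Transcript length moved with these directions. Over the decile of shortest transcripts (up to 1509 bases) the median log2 fold change was 0.106, with 68 genes called higher and 11 lower, and over the decile of longest transcripts (from 7049 bases) it was -0.068, with 18 higher and 74 lower. The median length was 2662 bases for genes called higher, 5307 for genes called lower and 3541 for all genes tested.  After a trend on GC content and length was removed, 5 genes of complexes I to IV and ATP synthase were called, all higher, with medians of 0.07, 0.03 and 0.02. The 3 chromatin lists then had 25 lower calls, 1 higher call and medians of -0.14, -0.17 and -0.19. The part of transcript length in the calls of each list was not tested further.

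**Figure D4:**
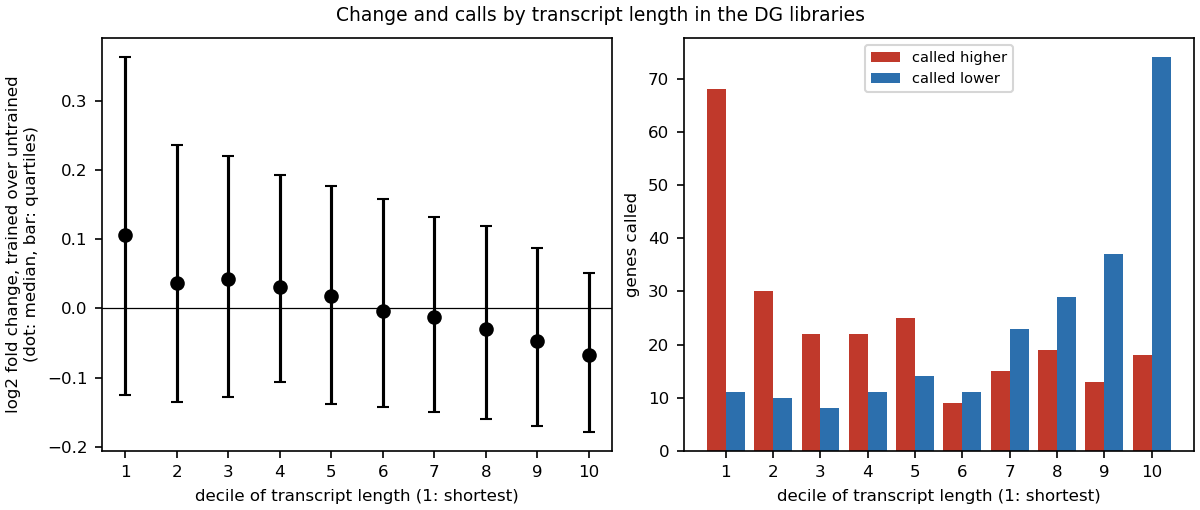
Left, median log2 fold change of trained over untrained with quartiles for the genes of each decile of transcript length in the DG libraries; right, the number of genes called higher (red) and lower (blue) in each decile. The median falls from 0.106 in the shortest to -0.068 in the longest decile, and calls turn from mostly higher (68 against 11) to mostly lower (74 against 18).

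**Figure D5:**
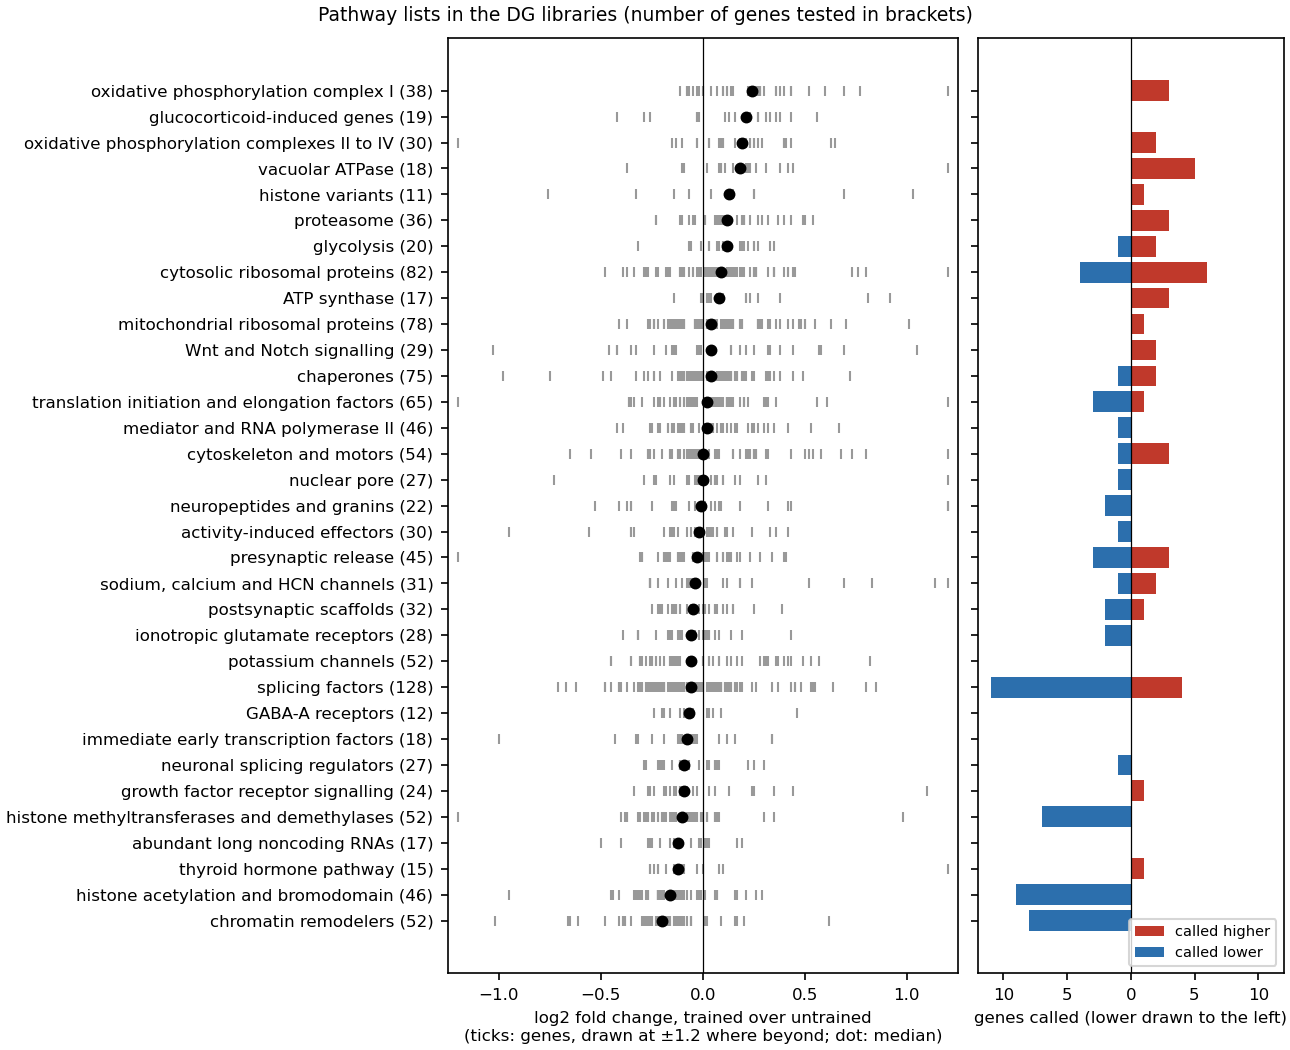
Log2 fold changes of the genes of 33 pathway lists in DG (ticks, with the median as a dot, on the left) and the number called higher (red) or lower (blue) on the right. Complex I has the highest median (0.24) and chromatin remodelers the lowest (-0.20). Splicing factors, the largest list (128 genes tested), have the most calls, with 11 lower (8.59%) and 4 higher (3.12%). The largest share called in 1 direction is that of the vacuolar ATPase (27.8% higher). Over all genes tested 1.74% were called higher and 1.66% lower.

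Synaptic genes were called in both directions. Of 45 genes of presynaptic release, 3 (6.67%) were higher and 3 (6.67%) lower, against 1.74% and 1.66% of all genes. Without trained replicates 1, 2 and 3, 3, 0 and 2 genes of this list were called, and with the spread from all 16 libraries 1. Sv2b, a synaptic vesicle glycoprotein, was at 3015, 3417 and 2994 in trained and 2335 and 2416 in untrained DG (log2 fold change 0.40), and Syn2 (0.34) and Stx1a (0.41) were higher. Syt7, a slow calcium sensor of release, was at 3800 to 4379 against 5183 and 4831 (-0.30), and Syn3 (-0.30) and the vesicular glutamate transporter gene Slc17a6 (-1.32, from values of 17.4 to 70.5) were lower. Among 32 postsynaptic scaffold genes Camk2n1, an inhibitor of CaMKII, was higher (0.25). The genes lower in that list included Ppp3ca, the catalytic subunit of calcineurin (-0.22). Of 28 ionotropic glutamate receptor genes and their partners, Cacng7 (-0.39) and Shisa7 (-0.32) were lower. When trained replicate 1, 2 or 3 was left out, 0 genes of this list and of the postsynaptic list were called. In the channel lists Cacna1g (0.52), a T-type channel like Cacna1i, was higher and Scn3a (-0.26) lower, and none of 52 potassium channel, 12 GABA-A receptor and 7 metabotropic glutamate receptor genes was called by limma. In those 3 lists 10, 4 and 0 genes were lower and 3, 1 and 1 higher at an unadjusted p under 0.05. Of the secretory granule proteins, Scg3 (-0.41) and Scg2 (-0.35) were lower.

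Arc and the immediate early transcription factor genes gave no call in this comparison. Arc, which also drives the Cre of these mice, was at 1521, 1459 and 1644 in trained and 1421 and 1718 in untrained DG, so the groups overlapped (log2 fold change -0.02, standard error 0.0835, limma adjusted p = 0.923). Fos was at 111, 106 and 138 against 119 and 121 (-0.03). Egr1 was at 672, 649 and 800 against 811 and 972 (-0.33, limma adjusted p = 0.0852), with all trained libraries lower. Of 18 immediate early transcription factor genes 0 were called by limma, and at an unadjusted p under 0.05 1 was higher and 2 were lower. The median of the 18 was -0.08. Without untrained replicate 1 it was -0.07 and without untrained replicate 3 it was -0.01. With the number of genes at 0 as covariate, 1 of the 18 was called higher and 0 lower. In 30 activity-induced effector genes only Scg2 was called, and of 19 glucocorticoid-induced genes 0 were called, with 5 higher and 2 lower at an unadjusted p under 0.05, a level that 19.5% of all genes passed. The median of the 19 was 0.21, and it was 0.08 and 0.15 without untrained replicates 1 and 3. A simulated comparison with 2 untrained libraries held 200 changed genes. It found 5.5% of changes of 0.5 and 72.0% of changes of 1 on the log2 scale. Fewer genes were called in it than the 473 of the data, so its adjusted cut was stricter. In the data Rps14 was called at 0.35 with a standard error of 0.0836, close to that of Arc. Small changes of these genes could still have gone unseen, and how often was not tested.

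Markers of cell types differed between the groups. Of the 22 granule cell markers 3 (13.6%) were called, all lower, against 1.66% of all genes, and 21 had a negative fold change (median -0.21). The summed level was 31195, 30456 and 29301 in trained and 36099 and 34687 in untrained libraries. Prox1 was at 3365, 3367 and 3292 in trained and 4118 and 4183 in untrained DG (log2 fold change -0.31, standard error 0.0565, limma adjusted p = 0.00965), and Stxbp6, which encodes the SNARE regulator amisyn (-0.44), and the guidance molecule gene Sema5a (-0.28) were lower as well. Without trained replicate 1, 2 or 3, 1, 0 and 1 of them were called. In bulk tissue, fewer cells of a type and less RNA per cell cannot be told apart. Their share in the changes of the other lists was not tested. Among immature granule cell markers, Neurod2 (-0.27) was lower, and 0 of 11 stem cell and progenitor markers tested were called by limma, with 1 higher and 3 lower at an unadjusted p under 0.05.

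Of the 12 CA3 pyramidal markers 10 had a positive fold change (median 0.22) and 0 were called, with the largest evidence for Bok (427 to 516 in trained against 307 and 421 in untrained libraries). Their summed levels overlapped, with 12848 to 14873 in trained and 12765 and 13697 in untrained mice. Over all genes tested, 1.74% were called higher and 1.66% lower, beside which the single calls of the marker lists stand. Of 12 CA1 markers the kinase gene Itpka was called (0.40), with a list median of 0.09. Of 7 mossy cell markers Ociad2 was called (0.60), while 5 were negative and the median was -0.22. Of the 9 CA2 markers Pcp4 (-0.38) and Map3k15 (-1.68, from 5.1 to 12.3 against 27.1 and 39.4) were lower, with 0 called without trained replicates 2 or 3. The CA2 median was -0.37, and it was -0.21 and -0.59 without untrained replicates 1 and 3. The 10 endothelial markers were all negative, with a median of -0.41 and summed levels of 706 to 798 in trained and 945 and 1282 in untrained libraries, but only Flt1 was called. The endothelial median was -0.25 and -0.59 without untrained replicates 1 and 3. Rgs5 was called among 9 mural markers (-0.51), of which 5 were positive (median 0.09), and Prkcd among 8 thalamic ones (-0.60), of which 7 were negative (median -0.42). Without untrained replicates 1 and 3 the thalamic median was -0.62 and -0.24. Slc22a6, an organic anion transporter of the leptomeninges, was higher at 28.2, 37.0 and 28.4 against 5.42 and 14.9. Oligodendrocyte markers summed to 15649 to 16986 in trained and 17582 and 22463 in untrained libraries with 0 of 13 called. Their median of -0.17 was -0.25 and -0.01 without untrained replicates 1 and 3. It turned to 0.48 with the sex-linked score and was -0.56 with the number of genes at 0 as covariate. Astrocyte, oligodendrocyte precursor, microglial, choroid plexus and ependymal sums overlapped between the groups, and of these lists only the astrocyte gene Fgfr3 (0.36) was called.

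A share of the higher genes were small nucleolar RNAs (snoRNAs), which guide the chemical modification of ribosomal and spliceosomal RNA and are mostly cut from introns of host genes. This class was singled out after its values were seen. Of the snoRNA genes in the files 44 passed the filter and were tested, and 18 (40.9%) were called higher and 0 lower, against 1.74% and 1.66% of all genes. Because a gene can pass the filter through the trained libraries alone, the 20 that had a value of at least 10 in both untrained libraries were examined separately, and 12 of these (60%) were called higher, 0 lower, with a median log2 fold change of 1.1. Without trained replicate 1, 2 or 3, 7, 6 and 7 of the 20 were called higher. Snora28 was at 100.5, 93.1 and 100.8 in trained and 27.3 and 22.4 in untrained DG (log2 fold change 1.90, limma adjusted p = 0.00027), whereas Eif5, the gene whose intron holds it, differed by 0.02. Snord118, known as U8 and needed for the large ribosomal subunit, was at 76.5, 84.9 and 80.4 against 24 and 27.5 (1.58). The host genes that could be tested for the 18 called snoRNAs numbered 14 and had a median of 0.01, from -0.27 to 0.30, with 1 of them called.

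Of the called box C/D snoRNAs in this group of 20, 3 are shown as annotated in GENCODE on GRCm38, to show what kind of transcript these calls stand for. Where a snoRNA lies within a host gene, reads of the host's unspliced RNA can be counted for it, so such values are uncertain. Capitals mark the first TGATGA, the letters of the C box, and the last CTGA, those of the D box.
Snord47 (chr1:161038082-161038158, plus strand, in an intron of Gas5): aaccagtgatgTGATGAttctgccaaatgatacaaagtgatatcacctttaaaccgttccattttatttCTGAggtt
Snord118 (chr11:69073427-69073561, plus strand): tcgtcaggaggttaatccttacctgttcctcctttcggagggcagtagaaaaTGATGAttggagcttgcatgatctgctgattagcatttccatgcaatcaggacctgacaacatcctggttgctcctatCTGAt
Snord104 (chr11:106500993-106501062, plus strand): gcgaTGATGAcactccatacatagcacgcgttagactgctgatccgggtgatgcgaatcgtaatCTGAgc
Snord47 was at 66.1, 55.7 and 86.6 in trained and 26.6 and 14 in untrained libraries, and Snord104 at 288, 264 and 375 against 78.9 and 144. The same 20 genes had medians of 1.06 between trained and untrained CA1 and 0.47 in CA3, with 2 and 1 called. Some of these libraries share animals with DG by their labels, so the values are not independent. With the spread estimated from all 16 libraries, 2 of the 20 were called in DG. The labels name polyA RNA and the methods an rRNA depletion, and the part of library preparation in the snoRNA values was not tested. After the GC content and length trend was taken out, the DG median was 0.15 and 2 were called higher and 2 lower, and with either covariate 0 were called.

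Whether the difference between trained and untrained mice in DG departed from that in the other subregions was tested as an interaction in the 16 libraries. Against CA1, 404 of 14673 genes (2.75%) were called, 228 (1.55%) with a higher and 176 (1.2%) with a lower log2 fold change in DG. Against CA3, 24 genes (0.164%) were called, 7 (0.0477%) higher and 17 (0.116%) lower. Fabp7, the brain lipid-binding protein of radial glia and astrocytes, was at 157, 117 and 127 in trained and 70.7 and 75.6 in untrained DG (log2 fold change 0.84), while the values were -0.53 in CA1 and -0.46 in CA3. Its effect in DG departed from both, by 1.37 from CA1 (limma adjusted p = 0.00347) and by 1.30 from CA3 (limma adjusted p = 0.0262). Atn1, the atrophin corepressor, had log2 fold changes of -0.40 in DG, 0.33 in CA1 and 0.18 in CA3, and its effect departed from both as well. Slc7a11, the cystine and glutamate exchanger, had a value of 0.13 in DG beside -0.61 in CA1 and -0.52 in CA3, and Stac2, an adaptor of calcium channels, -0.11 beside 0.70 and 0.74. Both departed from CA1 and from CA3, and neither was called in DG itself. With the animal as a replicate block, Fabp7, Atn1, Slc7a11 and Stac2 were called against CA1 but not against CA3, where their limma adjusted p-values lay between 0.0617 and 0.144.

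Atp5g3 (0.92 in DG, 0.23 in CA1), Rpl34 (1.40 and 0.06), Srrm1 (-0.62 and -0.07) and Snrnp70 (-0.48 and 0.15) also departed from CA1. For Crym, Kit, H2afz, Kmt2e and Prox1 neither interaction was called. The values of Crym were -0.13 in CA1 and 0.94 in CA3 and those of Kit 0.21 and 1.38, with 0 of these 4 called. With the animal as a block, 282 genes were called against CA1 (131 higher) and 5 against CA3. Without DG trained replicates 1, 2 and 3, 112, 260 and 116 genes were called against CA1 and 1, 23 and 1 against CA3. Leaving out either DG untrained replicate leaves 1 animal in that group, so the genes called in those fits are not counted here. With the number of genes at 0 as covariate 0 were called by limma in either, although 900 and 1213 had an unadjusted p under 0.05. The number of genes at 0 was higher in trained than in untrained libraries of CA1 (8323 to 9759 against 3124 to 5425), which is opposite to DG.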

How the data were processed

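Libraries were made from rRNA-depleted total RNA, while the labels name polyA RNA. Per the study's methods and the submitters' processing notes, the authors aligned reads with STAR (GRCm38 in the notes) and quantified genes with Salmon 1.2.0. The deposited signal is a normalized estimated count per gene, and its values are not whole numbers, so no count test was run. The normalization is not given in the sources used here. Labels gave the groups, and replicates are animals.

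In R 4.3.3, limma 3.58.1 (trend, robust, Benjamini-Hochberg) was fitted to log2(value + 2) of the 5 DG libraries over genes with a value of at least 10 in at least 2 libraries, and called at adjusted p under 0.05. Interactions used all 16 libraries. Fold changes are on this scale and are understated for low genes. Simulated data with 13856 genes tested gave 144 of 200 changes of 1 on the log2 scale, with 11 unchanged genes called. Symbols of 24464 of 24972 genes matched GENCODE M21.

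Members, gene lists, naming rule and tests were chosen with earlier results of these data known. The rule names genes the study named in DG, the 12 higher and 12 lower genes of smallest p and the 8 of largest change each way (protein-coding or lncRNA, mean of at least 50, groups apart), up to 3 called genes per list and direction or else 2 values, marker genes, fixed sex-linked and immediate early genes, and 5 genes per direction in each interaction. Other called list members were named after their values were seen. Replicate numbers do not pair trained with untrained DG libraries, which are different animals (correlations of deviations -0.055 and -0.004). Libraries of one animal in 2 subregions correlated between -0.105 and 0.086. No library repeated another. Of the called genes that the lists count, 2 are not reported here. Alternatives are listed in the closing section, and genes above 0 in every DG library was added after seeing the data.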

Additional observations from a re-analysis of the deposited data

Results flagged for a closer look

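The log2 fold change between trained and untrained mice in DG departed from that in another subregion for 43 of the named genes in 52 values, each by the limma interaction test at an adjusted p under 0.05. All values below are the DG log2 fold change minus that of the other subregion. A group of 3 or 2 libraries is too small for an outlier test. The genes of the interaction part of the naming rule were chosen by this same contrast, and no cause was tested.

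Against CA1, the value was higher in DG for the following genes. It was 0.69 for Atp5g3, 1.34 for Rpl34, 0.83 for Rpl22l1, 0.73 for Rps14 and 0.59 for Psmd6. It was 0.65 for Rabac1, 1.12 for Megf11, 0.54 for Itpka, 0.71 for the complement gene C1qc, 2.45 for Slc22a6, 0.55 for Snrpd2 and 0.79 for Cacna1g. It was 1.53 for Cmya5, 0.74 for Slc7a11, 0.66 for the postsynaptic scaffold gene Homer1, 1.37 for Fabp7, 1.11 for Atrip-trex1 and 0.90 for Sptssa, which encodes a small subunit of serine palmitoyltransferase.

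Against CA1, the value was lower in DG for the following genes. It was -0.55 for Srrm1, -0.60 for Ybx1, -0.54 for Pnisr, -0.63 for Snrnp70 and -0.48 for Rbm26. It was -0.47 for Rpl21, -0.40 for Rpl19, -0.45 for Eif4g3 and -0.35 for Eif3a. It was -0.33 for Wipf3, -0.34 for Olfm1, -0.47 for Syt7, -0.47 for Cacng7, -0.35 for the kinesin gene Kif5c, -0.45 for the microtubule protein gene Map1b, -0.81 for Stac2, -0.97 for Prkcd, -0.48 for the kinase gene Cdk16 and -0.52 for the kinase gene Taok3. It was -1.44 for Zfp960, -0.93 for Dync2li1, -0.50 for Arid4a and -0.73 for Atn1.

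Against CA3, the value was 0.64 for Slc7a11, 1.30 for Fabp7, 1.54 for Atrip-trex1 and 1.15 for Sptssa. It was -0.55 for Srrm1, -1.21 for Cd3eap, -0.58 for Atn1, -0.85 for Stac2, -0.51 for Cdk16, -0.59 for Phactr3, a regulator of protein phosphatase 1, and -0.70 for Taok3. With the animal as a replicate block, 2 of these 11 values were called, those of Atrip-trex1 and Cd3eap. Against CA1 the block left 29 of 41 called, and the calls of Megf11, Wipf3, Dync2li1, C1qc, Slc22a6, Rpl19, Psmd6, Snrpd2, Rbm26, Syt7, Cacng7 and Sptssa were lost.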

How the results depend on the processing

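Scaling, single libraries and the covariates each moved the number of genes called in DG. Leaving out 1 library gave 28 to 1583 calls (17 to 950 higher, 11 to 633 lower). Upper-quartile rescaling gave 5994 (5979 higher, 15 lower), no robust estimation 308 (161 and 147), the sex-linked score as covariate 56 (19 and 37), the number of genes at 0 as covariate 33 (16 and 17), and removal of the GC content and length trend 594 (185 and 409), among them 82.9% of the 473. The cause was not tested. Other pseudocounts, filters and median-of-ratios rescaling gave 413 to 543 calls, and of the 454 with the last, 450 were among the 473. Requiring values above 0 in every DG library, an alternative chosen after seeing the data, gave 501.

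Replicate numbers of trained and untrained DG libraries name different animals and share only a number. A fit with this replicate block gave 500 calls (256 higher, 244 lower), 356 of them among the 473. The interactions with the animal as replicate block gave 282 genes against CA1 (131 higher) and 5 against CA3 (1 higher, 4 lower).

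Leaving out 1 DG library gave 112 to 358 genes against CA1 (55 to 245 higher, 54 to 165 lower) and 1 to 25 against CA3 (1 to 9 higher, 0 to 17 lower). Keeping genes that reach 10 in each library gave 200 against CA1 (60 higher). The number of genes at 0 as covariate gave 0 in both interactions, with 900 and 1213 genes at an unadjusted p under 0.05, and the sex-linked score gave 27 lower against CA3.

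Of the 118 called genes taken by the naming rule, 34 turned from a negative to a positive or zero log2 fold change after upper-quartile rescaling. It shifts all genes by a median of 0.40. The 34 genes were Kmt2e 0.03, Syne1 0.07, Olfm1 0.09, Prox1 0.10, Sema5a 0.13, Pcp4 0.03, Neurod2 0.13, Scg2 0.06, Slc16a7 0.09, Rps24 0.03, Rpl19 0.01, Eif4g3 0.05, Eif3a 0.05, Eif5b 0.06, Hsp90b1 0.16, Jmjd1c 0.09, Ash1l 0.14, Bptf 0.08, Kat6b 0.06, Smarcd1 0.02, Rbm26 0.01, Celf2 0.19, Tpr 0.12, Syt7 0.10, Syn3 0.11, Ppp3ca 0.19, Cacng7 0.02, Shisa7 0.09, Scn3a 0.15, Scg3 0.00, Kif5c 0.17, Atn1 0.01, Map1b 0.12 and Cdk16 0.07. Strip2 turned to 0.71 with the sex-linked score and Tshz2 to 0.31 with the number of genes at 0. The other alternatives turned none of the 118. Called list members named outside the rule were not part of this check. Of the 20 snoRNAs, the spread from all 16 libraries left 2 called. Calls were lost for 75, 103 and 80 of the 118 without trained replicates 1, 2 and 3.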
